A study of Mus musculus with 6 samples.

Results

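Fam101b, Peg13 and Sh3bgrl2 were 3 of the most strongly and most evenly reduced transcripts in regulatory T (Treg) cells that lack miR-142, and Trappc9 is the gene whose intron holds Peg13. These 4 genes, of 24421 in the count matrix, were taken by symbol. The first 3 were chosen by their measured counts, selected on the fall from control to knockout cells that is described here, so their levels and fold changes are given as a description, without a test. Trappc9 was taken for its position and not for its level. The RNA came from CD4+YFP+ Treg cells sorted from the spleens of untreated female C57BL/6 mice of 8 to 11 weeks, with 1 sequencing library per mouse. Controls were Foxp3Cre mice (WT, n = 3), and knockouts were Foxp3Cre miR-142fl/fl mice (KO, n = 3). Both groups carried the Cre-YFP reporter at Foxp3, so YFP marks Foxp3-expressing cells in either group, and the deletion in KO mice is limited to cells that express Foxp3 or descend from such cells. No dose, time point or stimulation was varied. The study reports that mice of the KO genotype develop a fatal systemic autoimmune disease and that their Treg cells show an activated phenotype. As a caveat, it names inflammation in these mice as a possible inducer of pro-inflammatory expression changes in Treg cells. Genotype and disease run together in these libraries, so their parts in any difference cannot be told apart.

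Fam101b, listed in current annotation as Rflnb, encodes refilin B, a protein that binds filamins and takes part in the organization of actin filaments. Peg13 is a long noncoding RNA transcribed from the paternal allele and belongs to an imprinted domain with the potassium channel gene Kcnk9, and its host gene Trappc9 encodes a subunit of the TRAPP vesicle-traffic complexes that also binds the NF-κB kinases NIK and IKKβ. Sh3bgrl2 encodes a small protein with a thioredoxin-like fold. A microRNA such as miR-142 pairs through its seed, the bases near its 5′ end, with sites mostly in 3′ untranslated regions, and lowers the level or the translation of the RNAs that hold them.

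In the GENCODE annotation of GRCm38, the build named mm10 in the study's methods, Fam101b (ENSMUSG00000020846.6) lies at chr11:76019194-76027782 on the minus strand. It is on the same chromosome as the Mir142 locus, 11.7 Mb away. Sh3bgrl2 (ENSMUSG00000032261.16) occupies chr9:83548327-83638801 on the plus strand and has 5 annotated transcripts. Trappc9 (ENSMUSG00000047921.16) spans 471.6 kb at chr15:72589620-73061204 on the minus strand and has 7. Peg13 (ENSMUSG00000106847.1) is a single exon of 4725 bases at chr15:72805600-72810324, also on the minus strand. It shared 0 exon bases with Trappc9 and lies in intron 16 of 22-exon Trappc9 transcripts, an intron of 146.2 kb, and in intron 17 of an 18-exon transcript. Reads were counted without regard to strand and the genes run the same way, so reads from unspliced Trappc9 RNA over this stretch are counted to Peg13, and how many there were was not tested.

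The mature miR-142 sequences deleted in KO cells are shown first, because they define the sites looked for in the 4 genes. They are read from RefSeq (GRCm38.p6, plus strand of chromosome 11), with the seed, bases 2 to 8, in capitals.
mmu-miR-142a-5p: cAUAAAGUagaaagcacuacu
mmu-miR-142a-3p: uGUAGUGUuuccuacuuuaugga
The first lies at chr11:87756867-87756887 and the second at chr11:87756903-87756925. Sites pairing with bases 2 to 8 (ACTTTAT for 5p, ACACTAC for 3p), or with bases 2 to 7 and followed by A (CTTTATA and CACTACA), were looked for on the sense strand of the longest annotated 3′ untranslated region of each coding gene and in the whole Peg13 transcript. For miR-142a-3p, 0 sites were found in Fam101b, Sh3bgrl2, Trappc9 or Peg13, where 13.4% of 11116 tested genes had at least 1 in the same search. For miR-142a-5p, 0 were found in Fam101b and Sh3bgrl2 and 1 each in Peg13 and Trappc9, against 24.0% of the 11116 genes. The stretches searched were 2716 bases in Fam101b, 4110 in Sh3bgrl2, 1612 in Trappc9 and 4725 in Peg13. The percentages are over 3′ untranslated regions and not matched for length, so they are no like measure for the whole Peg13 transcript. Both 5p sites are shown with 10 bases on each side and the 7 paired bases in capitals.
Peg13 5p site: ggatcagggcACTTTATtcccacagaa
Trappc9 5p site: caatagaactACTTTATgatccagcag
The Peg13 site is at chr15:72808137-72808143. The Trappc9 site is at chr15:72800165-72800171, in the last exon of the 18-exon transcript ENSMUST00000170633. In the 22-exon coding transcripts this place lies within intron 16. Their own 3′ untranslated regions were not searched, so both Trappc9 counts refer to the 18-exon transcript. These are matches of letters in the annotated RNA, and absence of a match refers only to the stretches and the site letters searched. The study's methods also name another seed form of miR-142-3p, with different site letters in Hif1a and Ifngr2. Sites of that form were not looked for here.

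Promoter sequence was found in the RefSeq table for Fam101b and Sh3bgrl2 and not for Peg13 and Trappc9. The 250 bases before each start are shown, because both genes fell and their CG content is compared with that of other promoters, with every CG dinucleotide in capitals.
Fam101b promoter, chr11:76027783-76028032, minus strand: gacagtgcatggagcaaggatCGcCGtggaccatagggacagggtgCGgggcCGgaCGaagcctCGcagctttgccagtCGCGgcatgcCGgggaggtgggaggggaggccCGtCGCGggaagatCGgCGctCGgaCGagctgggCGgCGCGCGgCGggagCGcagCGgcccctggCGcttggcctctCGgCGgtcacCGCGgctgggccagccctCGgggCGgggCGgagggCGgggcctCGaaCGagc
Sh3bgrl2 promoter, chr9:83548088-83548337, plus strand: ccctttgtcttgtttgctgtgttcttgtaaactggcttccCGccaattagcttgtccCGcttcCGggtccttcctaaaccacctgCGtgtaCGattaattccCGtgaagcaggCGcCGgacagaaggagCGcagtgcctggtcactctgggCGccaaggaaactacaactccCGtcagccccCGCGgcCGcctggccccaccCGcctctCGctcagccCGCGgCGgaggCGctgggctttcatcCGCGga
Over the full window, which adds the first 50 transcribed bases, Fam101b held 44 CG dinucleotides at 77.0% GC, and 2.25% of 32851 promoters held as many. Sh3bgrl2 held 32 at 65.0% GC, a number reached by 9.52% of promoters. The median promoter held 7 at 52.7% GC, so both lay in the CG-rich part of the range. On both strands of the same window, the GC box letters GGGCGG occurred 4 times in Fam101b and 0 times in Sh3bgrl2 (35.7% of promoters hold at least 1). The ETS core CCGGAA occurred 0 times in Fam101b and 1 time in Sh3bgrl2 (14.9% of promoters). Neither window held the RUNX letters TGTGGT (16.8% of promoters), the TCF/LEF letters CTTTGA (16.0%) or the forkhead letters GTAAACA (3.65%).

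Total counts ranged from 13883069 to 24042994 per library, and 11658 genes with more than 1 CPM (counts scaled to library size) in at least 3 libraries were tested. Mir142b, annotated antisense to the targeted Mir142 gene, lay at 4.14 to 9.05 CPM in WT libraries and fell to between 0.342 and 0.389 CPM in KO libraries. Foxp3, which defines Treg cells, lay at 536 to 595 CPM in WT libraries and at 642 to 749 CPM in KO libraries. It was not called at an FDR under 0.05 in edgeR's quasi-likelihood F test. Of the other Treg markers read, Il2ra (756 ± 38.0 CPM in WT, 2580 ± 435 CPM in KO) and Tnfrsf18 (184 ± 20.6 and 324 ± 47.5 CPM) were called higher. Ctla4, Ikzf2, Cd4 and Cd3e were not called. Cd4 and Cd3e were lower in every KO library than in any WT library, an order found in 18.8% of all genes tested. The opposite order, that of Foxp3, Il2ra and Tnfrsf18, was found in 22.2%. KO replicate 1 stood apart: the summed level of 12 monocyte and macrophage markers was 3720 CPM there and 9.67 to 93.5 CPM in the other libraries, and all 12 were highest in it. The 11 neutrophil markers in the matrix summed to 1010 CPM against 4.06 to 13.1 CPM, again with all 11 highest in KO replicate 1, and 2 of them were at 0 counts in each other library. The 9 B cell markers summed to 250 CPM against 8.48 to 22.2 CPM, all 9 highest in that library. The 6 CD8 T and NK cell markers summed to 86.7 CPM against 20.1 to 55.9 CPM, with 4 highest in it. One of these markers, Eomes, had 39.1, 42.0 and 29.8 CPM in the KO libraries against 4.35 to 6.69 CPM in WT. The 8 erythroid and platelet markers summed to 13.8 CPM against 0.774 to 3.97 CPM, with only 2 highest in KO replicate 1. For the genes described here, results whose call changed without that library, and several whose size changed, are also given without it.

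Fam101b came first in order of p among all genes lower in KO, a place that restates its selection and is not a test. Its level was 97.6, 102 and 92.4 CPM in WT replicates 1, 2 and 3, and 13.1, 14.5 and 10.5 CPM in KO replicates 1, 2 and 3. Every KO library lay far below every WT library, and the lowest WT level was 6.36 times the highest KO level. The underlying counts were 1584, 2485 and 1670 in WT and 236, 192 and 153 in KO, so the low KO level still rested on at least 153 reads in each library. The group means were 97.3 ± 4.75 and 12.7 ± 2.06 CPM (SD, n = 3 each), a log2 fold change of -2.94 (SE 0.14), or 13.1% of the WT level. Libraries of 1 group varied by 4.88% in WT and 16.2% in KO (SD over mean), against 2.29% and 7.19% from counting error alone. Without KO replicate 1 the log2 fold change was -2.98.

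Peg13, the imprinted noncoding RNA, followed in the order of p. It had 102, 98.3 and 100.5 CPM in the WT libraries, the tightest group of the 4 genes, with an SD of 1.71% of the mean. Counting error alone would give 2.26%, so this tightness is no more than counting allows. In KO it had 28.8, 29.8 and 34.8 CPM, a spread of 10.4% against 4.6% from counting error. The groups did not overlap, with the lowest WT library at 2.83 times the highest KO library. Counts were 1650, 2397 and 1816 in WT and 518, 393 and 508 in KO. The means were 100.1 ± 1.71 and 31.1 ± 3.22 CPM (SD, n = 3 each), a log2 fold change of -1.69 (SE 0.099), so 31.1% of the level remained. Of the 3 genes selected for their fall, Peg13 thus had the smallest change and the smallest SE.

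Sh3bgrl2 had the fewest reads of the 4. Its level was 19.5, 19.4 and 21.0 CPM in WT and 4.61, 5.15 and 3.83 CPM in KO, from counts of 317, 473 and 380 and of 83, 68 and 56. Again the groups were apart, the lowest WT library lying at 3.77 times the highest KO library. The means were 20.0 ± 0.906 and 4.53 ± 0.661 CPM (SD, n = 3 each), a log2 fold change of -2.14 (SE 0.16), or 22.7% of the WT level. At this depth the spread was close to counting error, 4.53% against 5.06% in WT and 14.6% against 12.0% in KO. Without KO replicate 1 the log2 fold change was -2.17, and that of Peg13 was -1.65. In a bulk sample, a fall of this kind cannot be divided into fewer cells with the transcript and less RNA in each cell.

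**Figure D1:**
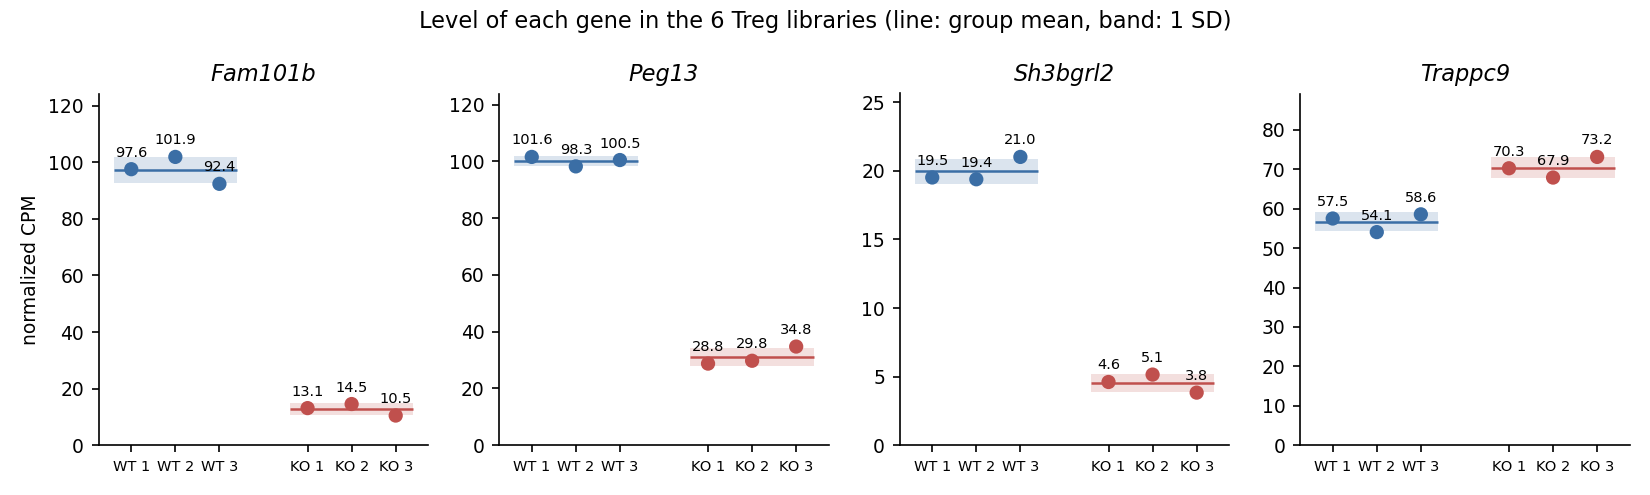
Level of Fam101b, Peg13, Sh3bgrl2 and Trappc9 in each of the 6 Treg libraries, in normalized CPM on axes that start at 0. Points are libraries (WT blue, KO red), lines are group means and bands are 1 SD (n = 3): the KO points of the first 3 genes lie far below the WT points, while those of Trappc9 lie above them, at 67.9 to 73.2 against 54.1 to 58.6 CPM.

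Trappc9 did not share the fall of the RNA in its intron. It measured 57.5, 54.1 and 58.6 CPM in the WT libraries and 70.3, 67.9 and 73.2 CPM in the KO libraries, from counts of 934, 1319 and 1059 and of 1266, 897 and 1069. Each KO library was above each WT library, an order that 22.2% of all genes tested had, while the opposite order, seen for the other 3 genes, was found in 18.8%. The means were 56.7 ± 2.36 and 70.4 ± 2.63 CPM (SD, n = 3 each), a log2 fold change of 0.31 (SE 0.081), or 1.24-fold, with an FDR of 0.0372 in edgeR's quasi-likelihood F test with Benjamini-Hochberg adjustment. Of all genes tested, 11.6% were higher and 7.27% lower in KO at an FDR under 0.05, so that 61.4% of the calls were higher, against 47.0% with library size as the only scaling. This call depended on the setting: the rise was called with 3 of 13 other ways of fitting, and without KO replicate 1 the log2 fold change was 0.30 with an FDR of 0.073. Leaving out WT replicate 1, 2 or 3 or KO replicate 3 gave FDR values of 0.114, 0.159, 0.109 and 0.106, and it was called without KO replicate 2, at 0.0326. In an exact two-sided permutation test on log2 CPM the p was 0.1, the smallest that 3 against 3 libraries allow.

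The 2 genes of 1 locus can also be compared within each library, where no scaling between libraries enters. The ratio of Peg13 counts to Trappc9 counts was 1.77, 1.82 and 1.71 in WT replicates 1 to 3 and 0.409, 0.438 and 0.475 in KO replicates 1 to 3. All WT libraries thus had more reads on Peg13 than on Trappc9 exons, and all KO libraries had fewer. The mean ratio was 1.77 ± 0.0512 in WT and 0.441 ± 0.0331 in KO (SD, n = 3 each), 4.01 times lower in KO. Per base of exon, Peg13 had 2.97 ± 0.0861 times the reads of Trappc9 in WT and 0.741 ± 0.0556 times in KO, so the order of the 2 turned. Fam101b, on another chromosome, went from 1.72 ± 0.155 counts per Trappc9 count in WT to 0.181 ± 0.0357 in KO, and Sh3bgrl2 from 0.352 ± 0.0112 to 0.0646 ± 0.0117. The falling genes did not fall in fixed proportion to each other: there were 0.972 ± 0.0595 Fam101b counts per Peg13 count in WT and 0.415 ± 0.1 in KO. Sh3bgrl2 and Peg13 stayed nearer in step, at 0.2 ± 0.00878 and 0.148 ± 0.0332 counts, and their WT and KO libraries did not overlap, with 0.192 the lowest WT and 0.173 the highest KO ratio. These ratios carry the selection of the falling genes and are descriptions.

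**Figure D2:**
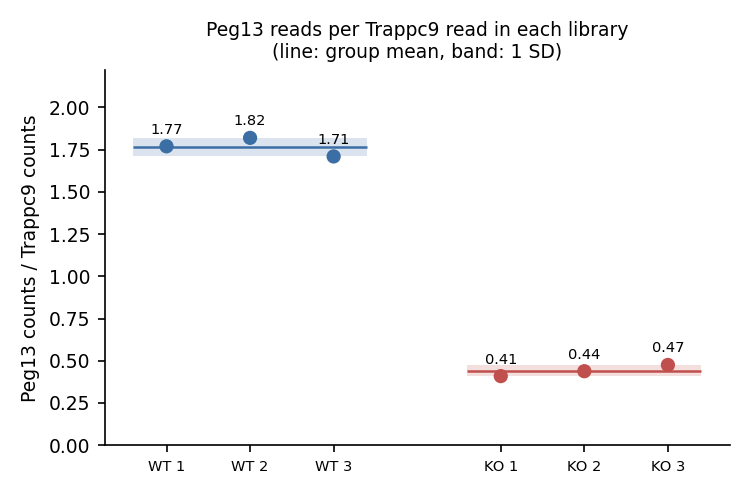
Raw Peg13 counts divided by raw Trappc9 counts in each library, with group means (lines) and 1 SD (bands, n = 3), on an axis from 0. WT libraries lie between 1.71 and 1.82 and KO libraries between 0.409 and 0.475.

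On a scale per length (CPM per kilobase of exon), Fam101b was the highest of the 4 genes in WT with 27.7 ± 1.35, followed by Peg13 with 21.2 ± 0.361, Trappc9 with 7.15 ± 0.297 and Sh3bgrl2 with 2.54 ± 0.115 (SD, n = 3 each). In KO the order was Trappc9 with 8.88 ± 0.331, Peg13 with 6.58 ± 0.682, Fam101b with 3.62 ± 0.587 and Sh3bgrl2 with 0.576 ± 0.0841. No neighbors in either order overlapped between libraries. Ranked by the group mean among the 11576 tested genes with an annotated length, Fam101b went from place 1790 in WT to place 8032 in KO and Peg13 from place 2447 to place 6389. Sh3bgrl2 went from place 8595 to place 10791, near the end of the tested range, and Trappc9 from place 6087 to place 5437.

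The selection can be placed among the other falls, in an order that restates it and tests nothing. In order of p among the 5621 genes lower in KO, Fam101b was at place 1, Peg13 at place 2 and Sh3bgrl2 at place 5. Between them were Rapgef4, a cAMP-activated exchange factor for Rap GTPases, with a log2 fold change of -2.33 (SE 0.15), and Rnf43, a ubiquitin ligase that removes Wnt receptors from the cell surface, with -2.20 (SE 0.15). Npas4, a transcription factor induced by cell activation, came next after Sh3bgrl2, with -2.43 (SE 0.19). In order of fold change alone Fam101b was at place 18, Sh3bgrl2 at place 46 and Peg13 at place 78, since the order by p also weighs the spread between libraries.

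Other imprinted genes were read beside Peg13, from a list of 74 genes of which 73 were in the matrix. Apart from Peg13 and Trappc9, 31 passed the filter on low counts and 40 did not, 14 of these with 0 counts in all libraries. Of the 31, 3 were called higher and 4 lower in KO, where all genes tested gave 11.6% and 7.27%. Their median log2 fold change was 0.04, against 0.02 over all genes tested, so the list as a whole did not follow Peg13.

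Among those that fell were 2 genes of the Dlk1-Dio3 imprinted domain. Rian, a noncoding RNA of its maternal allele, measured 2.53, 2.95 and 2.99 CPM in the WT libraries and 0.777, 0.681 and 0.821 CPM in the KO libraries, a log2 difference of -1.88 (SE 0.25, FDR = 0.00395). Dio3, a deiodinase that inactivates thyroid hormone, went from 1.75 ± 0.473 to 0.283 ± 0.128 CPM, a log2 difference of -2.59 (SE 0.435, FDR = 0.00882). The domain's noncoding RNAs Meg3 and Mirg were below the filter, with 32 and 14 counts over all 6 libraries. Zrsr1, a splicing factor gene of the paternal allele, fell by 1.26 on the log2 scale (SE 0.28, FDR = 0.0234), and Ddc, the aromatic amino acid decarboxylase, fell by 1.28 (SE 0.26, FDR = 0.0166). In the other direction, Cdkn1c, a cyclin-dependent kinase inhibitor expressed from the maternal allele, went from 2.70 ± 0.445 to 30.8 ± 10.1 CPM, a log2 difference of 3.51 (SE 0.30, FDR = 0.000996). Pon2, a paraoxonase, rose by 0.48 (SE 0.097, FDR = 0.0162). Gatm, of creatine synthesis, was called higher (FDR = 0.0343) and had 24.5, 1.06 and 1.03 CPM in KO against 0.0616 to 0.123 CPM in WT. KO replicate 1, the library with markers of other cells, thus decided its size, and the part of those cells was not tested. Without any 1 of the KO libraries Gatm was under the filter and could not be tested. Of these genes 3 (Rian, Dio3 and Gatm) passed the filter through 1 group only, and without WT replicate 1, 2 or 3 the list had 1, 0 and 0 genes called lower and 1, 1 and 1 called higher, Cdkn1c each time. Without KO replicate 2, 7 genes were called lower. Tnfrsf23 was not called with all libraries (log2 difference 0.84, SE 0.26, FDR = 0.0655) and was called higher without KO replicate 1 (0.95, SE 0.27, FDR = 0.0437).

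Within the Peg13 domain itself, Kcnk9 had 0 counts in all 6 libraries, under a floor of 3 counts that corresponds to 0.123 to 0.227 CPM per library, so its level in relation to Peg13 could not be read. Col22a1, a collagen gene on the far side, had 4 counts in all. The 3 other genes of the list were expressed, and edgeR's quasi-likelihood F test called 0 of them, with 0 at an unadjusted p under 0.05 and 0 called by DESeq2. Chrac1, a chromatin remodeling subunit, measured 30.7 ± 1.06 CPM (WT) and 33.4 ± 4.16 CPM (KO), a log2 difference of 0.12 (SE 0.12, FDR = 0.516). Ago2, the Argonaute protein that carries microRNAs, had 317 ± 32.4 and 299 ± 11.1 CPM, with -0.09 (SE 0.099, FDR = 0.583). Ptk2, focal adhesion kinase, had 8.31 ± 1.67 and 7.54 ± 0.83 CPM, with -0.14 (SE 0.21, FDR = 0.669). The domain thus held Peg13 at 31.1% of its WT level next to coding genes with fold changes between -0.14 and 0.31 on the log2 scale.

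The complexes that Trappc9 belongs to were read next. Of 15 TRAPP subunit genes in the matrix, Trappc3l had 5 counts in all and was not tested, and edgeR's quasi-likelihood F test called 0 of the other 13 apart from Trappc9. At an unadjusted p under 0.05 there was 1, Trappc12, with a log2 difference of -0.26 (SE 0.096, FDR = 0.103), and DESeq2 called 0 as well. The median log2 fold change of the 13 was -0.04 against 0.02 over all genes tested, with values from -0.50 (Trappc2, 1.95 CPM in WT) to 0.33 (Trappc13). Trappc10, the partner of Trappc9 in TRAPPII, averaged 158 ± 9.98 CPM in WT against 168 ± 14.6 CPM in KO, a log2 difference of 0.08 (SE 0.096, FDR = 0.573).

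Genes related to the 3 proteins by family or by binding gave 1 higher and 1 lower among 8 tested, where all genes tested gave 11.6% and 7.27%, and 2 were not tested. Fam101a, the other refilin gene, was near the filter in both groups, at 0.966 ± 0.0966 CPM in WT and 0.896 ± 0.377 CPM in KO (log2 fold change -0.10, SE 0.39, FDR = 0.873), so Fam101b supplied nearly all refilin reads in WT. Flna, a filamin that refilins bind, averaged 1830 ± 139 CPM in WT against 1950 ± 187 CPM in KO, a log2 difference of 0.09 (SE 0.12, FDR = 0.616). Flnc had 0 counts.

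In the family of Sh3bgrl2, Sh3bgrl3 rose from 252 ± 22.7 to 371 ± 41.3 CPM, a log2 difference of 0.56 (SE 0.12, FDR = 0.0179). Sh3bgrl had 128 ± 33.0 and 180 ± 22.2 CPM, with 0.49 (SE 0.19, FDR = 0.111), and Sh3bgr had 6 counts in all and was not tested. Within the family, then, Sh3bgrl2 was lower in KO, Sh3bgrl3 was higher and Sh3bgrl did not pass the test. Among the NF-κB kinases linked to Trappc9, Ikbkb, which encodes IKKβ, fell from 311 ± 10.7 to 218 ± 16.0 CPM, a log2 difference of -0.51 (SE 0.088, FDR = 0.00987). Map3k14, which encodes NIK, had 109 ± 12.2 and 89.4 ± 6.72 CPM, with -0.28 (SE 0.11, FDR = 0.109). Chuk gave -0.19 (SE 0.15, FDR = 0.412) and Ikbkg 0.07 (SE 0.15, FDR = 0.766). The 8 genes had a median log2 fold change of -0.02, against 0.02 over all genes tested. Sh3bgrl3 was not called without WT replicate 1, 2 or 3 or KO replicate 3, where 0, 1 (Sh3bgrl), 0 and 0 genes of this list were called higher. Ikbkb was not called without WT replicate 2 or 3, each of which left 0 called lower.

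**Figure D3:**
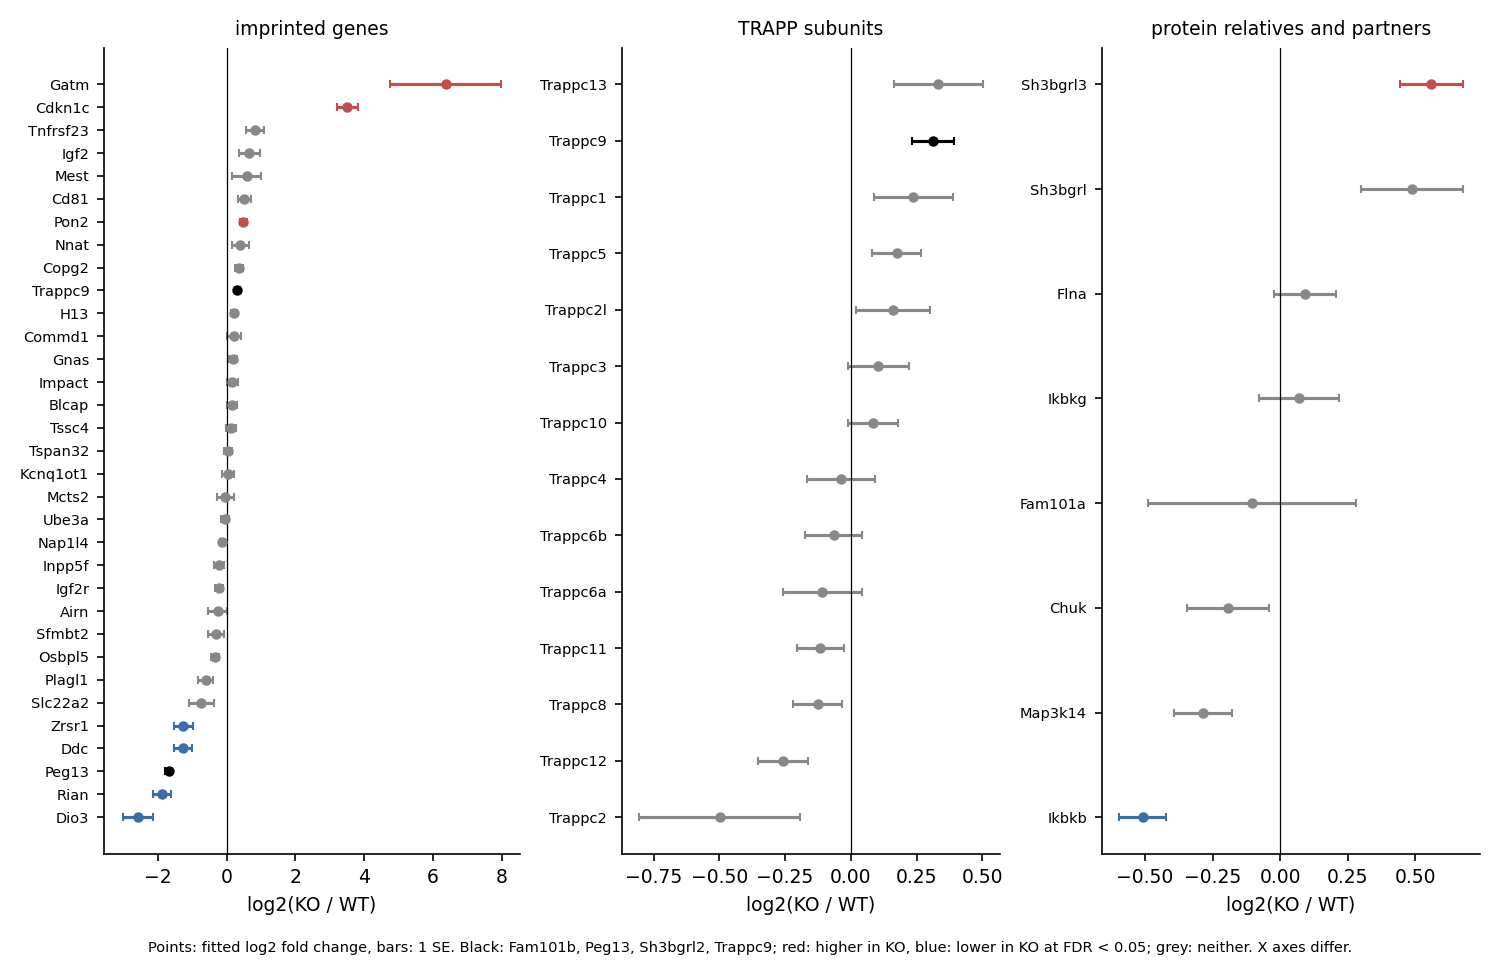
Fitted log2 fold change (KO over WT) with 1 SE of the tested imprinted genes, TRAPP subunits and protein relatives or partners, on x axes that differ between panels. Black points are Peg13 and Trappc9, red and blue points were higher and lower in KO at an FDR under 0.05, and grey points were neither: Peg13 lies between Rian and Ddc near the low end of the imprinted genes, and 0 of the 13 other TRAPP subunits are colored.

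Genes beside the 3 loci were read to see how far along the chromosome the falls reached, taking the 5 nearest tested genes on each side. Of 30, 6 were called higher and 2 lower, where all genes tested gave 11.6% and 7.27%, with a median log2 fold change of 0.10 against 0.02 over all genes tested. The 6 genes directly beside a locus had FDR values from 0.0751 to 0.858 and were not called. Next to Fam101b, Vps53, a subunit of vesicle tethering complexes, 18.4 kb away, had a log2 difference of -0.08 (SE 0.075, FDR = 0.498), and Rph3al, a Rab effector, 80.8 kb away, had -0.56 (SE 0.19, FDR = 0.0751). Next to Sh3bgrl2, Lca5, a ciliary protein gene 107 kb away, had 0.05 (SE 0.17, FDR = 0.858), and Ttk, a mitotic kinase, 196 kb away, had 1.26 (SE 0.62, FDR = 0.194). Ttk measured 5.61 CPM in KO replicate 1, the library with markers of other cells, and 1.21 and 1.44 CPM in the other KO libraries against 0.774 to 1.39 CPM in WT, and without KO replicate 1 its log2 difference was 0.17 (FDR = 0.785). Beside Trappc9, Chrac1 was 29.2 kb away with the value given above, and Zfat, a zinc finger gene, was the nearest tested gene on the other side at 4330 kb, with -0.16 (SE 0.17, FDR = 0.544).

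On the low-coordinate side of Fam101b, Ywhae, a 14-3-3 protein gene 253 kb away, rose by 0.98 on the log2 scale (SE 0.13, FDR = 0.00413). Crk, an adaptor of tyrosine kinase signaling, at 312 kb, rose by 0.85 (SE 0.10, FDR = 0.00286), and Myo1c, an unconventional myosin, at 345 kb, rose by 1.41 (SE 0.20, FDR = 0.00485). Myo1c was highest in KO replicate 1, and without that library it rose by 1.16 (SE 0.13, FDR = 0.00126). These 3 genes stand in a row, and the 5 on the other side of Fam101b had FDR values from 0.174 to 0.858. Around Sh3bgrl2, Irak1bp1 at 701 kb was called higher, by 1.02 (SE 0.27, FDR = 0.0373), and Ibtk, an inhibitor of Bruton's tyrosine kinase, at 2050 kb fell by 0.45 (SE 0.13, FDR = 0.0458). Irak1bp1 was over the filter in KO libraries only and was called in 4 of 13 alternatives, Ibtk in 8 of 13, and neither was called without KO replicate 1 (FDR = 0.0709 and 0.0708). Beyond Zfat, from 5410 kb to 5670 kb away from Trappc9, the sialyltransferase gene St3gal1 fell by 0.82 (SE 0.11, FDR = 0.00418), Ndrg1 rose by 0.72 (SE 0.14, FDR = 0.0134) and Wisp1, a secreted matricellular protein gene, was called higher, by 1.56 (SE 0.42, FDR = 0.0422). Wisp1 measured 15.7 CPM in KO replicate 1 and 4.62 and 8.62 CPM in the other KO libraries, against 2.88 to 3.69 CPM in WT. It was called in 6 of 13 alternatives and not without KO replicate 1, where the log2 difference was 0.996 (FDR = 0.0561), and the part of the other cells in its level was not tested. Leaving out WT replicate 2 left 3 neighbors called higher and 1 lower, and 1 was called lower without WT replicate 3, KO replicate 1 or KO replicate 2.

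**Figure D4:**
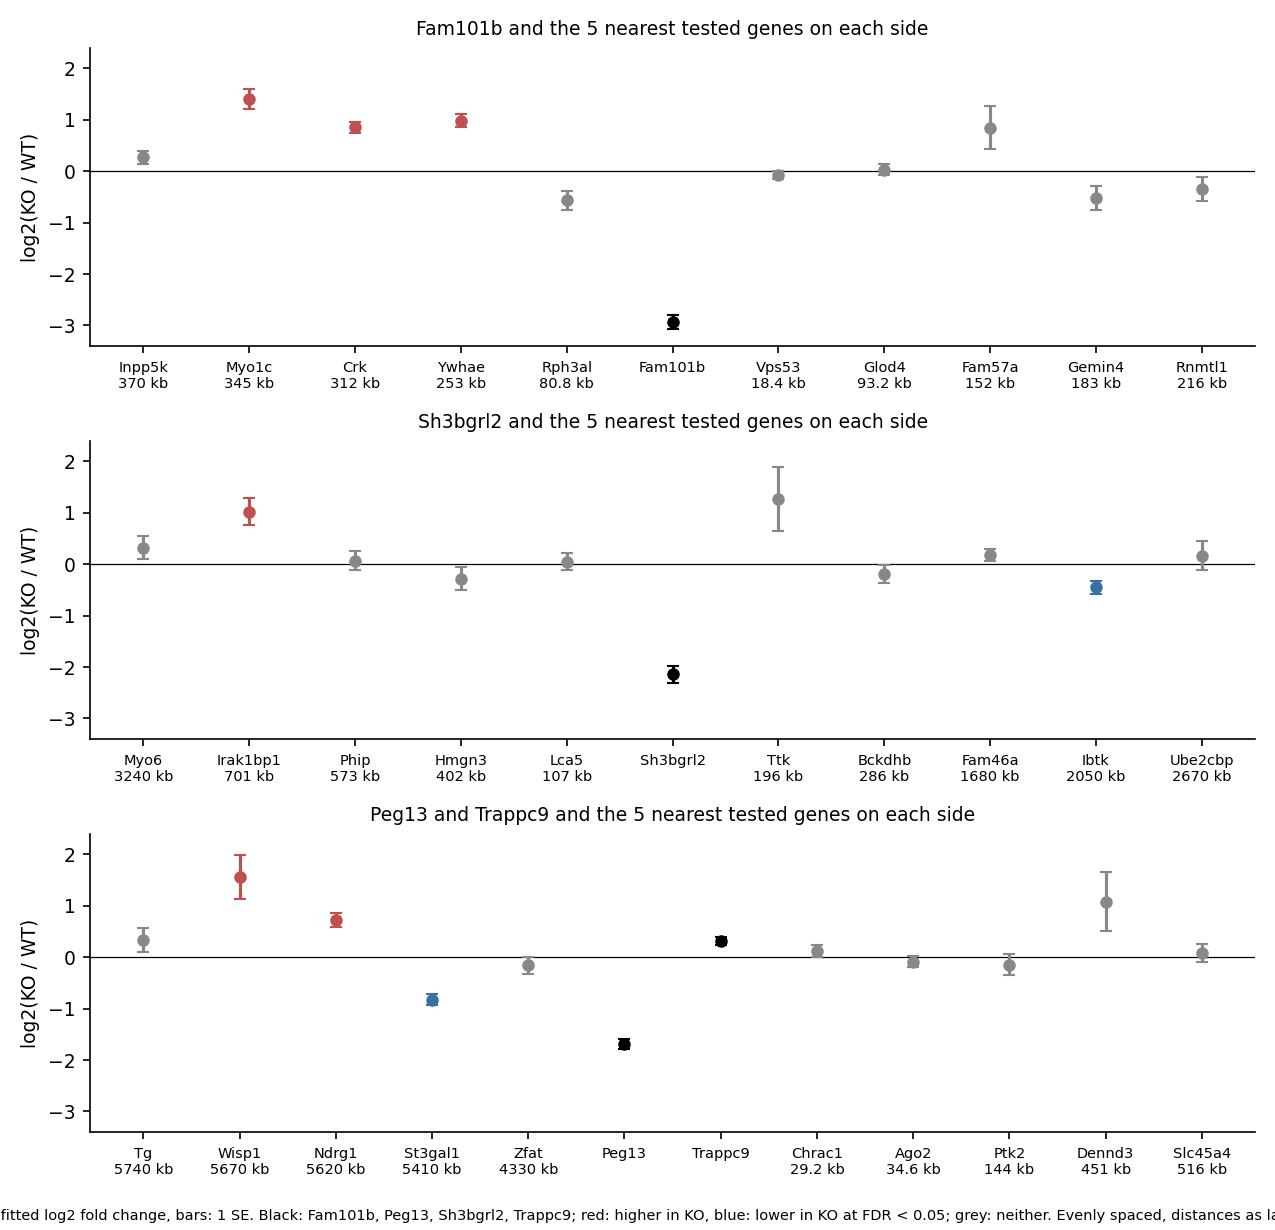
Fitted log2 fold change (KO over WT) with 1 SE of the falling genes and Trappc9 (black) and of the 5 nearest tested genes on each side, in chromosomal order, evenly spaced and labeled with their distance in kb. Red and blue points were higher and lower in KO at an FDR under 0.05, and grey points were neither: no neighbor came near the -2.94, -2.14 and -1.69 of Fam101b, Sh3bgrl2 and Peg13, the lowest being St3gal1 with -0.82.

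Genes with the most similar course over the 6 libraries were found by the root mean square difference of log2 CPM after centering each gene on its mean. Each such list largely restates the WT to KO difference, and it is a description. The 3 nearest to Fam101b were Cc2d2a, a ciliary transition zone gene (difference 0.192), Susd4, a complement regulator gene (0.224), and 1810006J02Rik (0.255). All 3 were over the filter in WT libraries only, with 0.479 to 0.958 CPM in KO libraries. The prior count of 2 in log2 CPM shrinks differences at such low levels, so nearness there depends partly on it. The 3 nearest to Peg13 were Rian (0.114), the imprinted noncoding RNA of chromosome 12 described above, the kinase gene Ttbk1 (0.126) and Gna14, a G protein alpha subunit gene (0.154). Rian was likewise over the filter in WT libraries only, so the same limit holds for it. Nearest to Sh3bgrl2 were Rapgef4 (0.125), the kinase gene Camk2a (0.184) and the neurotrophin receptor gene Ntrk3 (0.226). Between the falling genes the difference was 0.296 for Peg13 and Sh3bgrl2, 0.415 for Fam101b and Sh3bgrl2 and 0.663 for Fam101b and Peg13. These pairs cannot be set against the 3 nearest genes, which were picked as the smallest differences among all genes tested. In order of nearness to Fam101b, Sh3bgrl2 was at place 12 and Peg13 at place 47. Nearest to Sh3bgrl2, Peg13 was at place 13 and Fam101b at place 49. From Peg13, Sh3bgrl2 was at place 50 and Fam101b at place 1355. Trappc9 was nearest to the septin gene Sept9 (0.0228), the Ras regulator Nf1 (0.0264) and the ubiquitin ligase gene Rnf122 (0.0295), with log2 fold changes of 0.29, 0.31 and 0.33.

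Across 14 ways of fitting, the log2 fold change of Fam101b lay between -3.03 and -2.83, that of Sh3bgrl2 between -2.23 and -2.05, that of Peg13 between -1.79 and -1.65 and that of Trappc9 between 0.24 and 0.34. The ranges of the 4 genes did not overlap, and no setting changed a sign. For the 3 selected genes the sign was all but fixed by their selection.

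**Figure D5:**
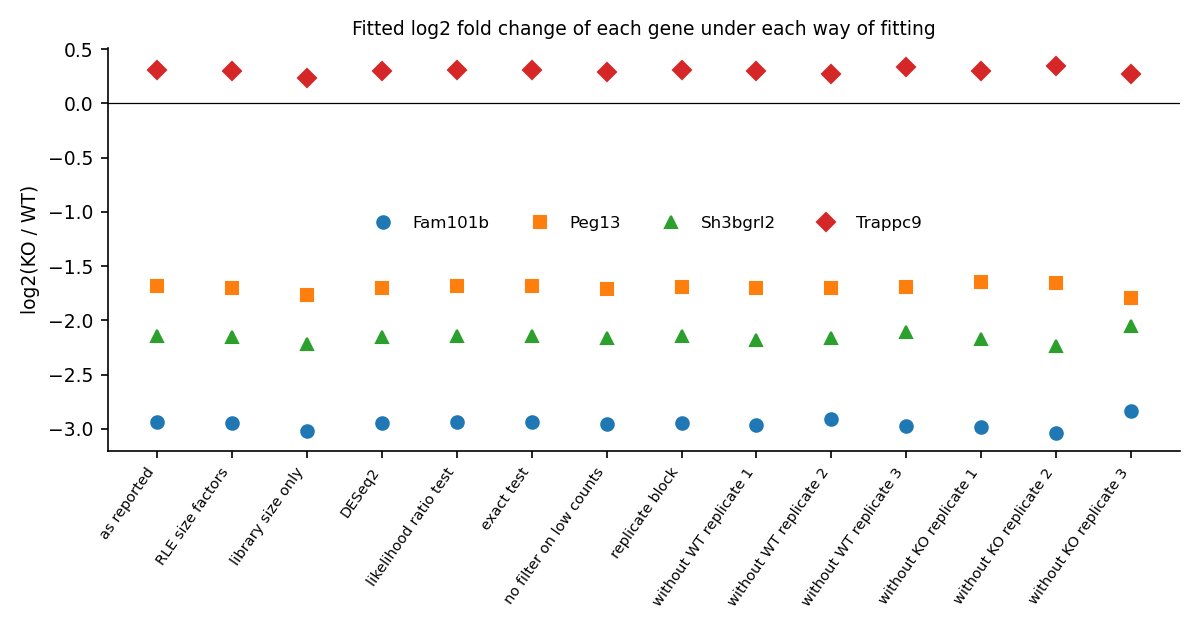
Fitted log2 fold change (KO over WT) of the 4 genes as reported and under 13 alternatives of scaling, test, filter, replicate block and left-out library. Each gene stays in its own band, with Trappc9 above 0 at 0.24 to 0.34 and Fam101b lowest at -3.03 to -2.83.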

How the data were processed

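The 6 RNA-seq libraries were 3 of WT and 3 of KO splenic Treg cells. The authors mapped single-end reads to mm10 by HISAT, assigned them to genes by featureCounts in unstranded mode, and deposited the counts as whole numbers that were not normalized. Treatment of reads that map to several genes and the annotation used for counting are not given in the sources used here. All 6 sample columns were used.

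The filter kept genes above 1 CPM in 3 or more libraries. Library sizes were scaled by TMM, and KO was compared with WT by the quasi-likelihood F test of edgeR 4.0.16 (R 4.3.3) at an FDR threshold of 0.05. CPM values use TMM-scaled library sizes, and SE is the size of the log2 fold change over the square root of F. A count of 1 corresponded to 0.0410 to 0.0757 CPM. Levels per length divide CPM by the union of GENCODE vM21 exons on GRCm38, to which 23334 genes matched by symbol, 666 by synonym and 421 not at all. The permutation test used log2 of CPM plus 0.5, and centered log2 CPM a prior count of 2.

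The genes described and all lists were chosen with earlier results of these data known. Besides the 4 genes, those named were the genes up to the next one after Sh3bgrl2 in order of p among falls, the tested relatives, partners and genes of the Peg13 domain, imprinted genes and TRAPP subunits past the FDR threshold, neighbors directly beside a locus or past the threshold, and the 3 most similar genes for each. Some further genes are named with their values because a count turned on them (Meg3, Mirg, Tnfrsf23, Trappc2, Trappc3l, Trappc10, Trappc12 and Trappc13), chosen after their values were seen. Alternatives were RLE scaling, library size alone, DESeq2 1.42.0, likelihood ratio and exact tests, no filter, a replicate block and leaving out each library. The fits were tested on simulated counts. The common biological coefficient of variation was 0.212. The values of 1 gene of the list of protein relatives and partners are not reported here, and its counts leave that gene out.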

Additional observations from a re-analysis of the deposited data

How the results depend on the processing

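Across the alternatives tried, Fam101b, Peg13 and Sh3bgrl2 moved by less than the larger of their group SDs in log2 CPM (0.24, 0.145 and 0.21). They kept their direction, which was all but fixed by their selection for large falls in these same libraries, so it is no separate evidence for Fam101b, Peg13 and Sh3bgrl2. With single libraries left out their log2 fold changes ranged from -3.03 to -2.83, from -1.79 to -1.65 and from -2.23 to -2.05. Trappc9 kept its direction and was called with RLE size factors (FDR = 0.0414), with DESeq2 (FDR = 0.0188) and without KO replicate 2. It was not called with library size only (0.24, FDR = 0.103), the likelihood ratio test (0.31, FDR = 0.0811), the exact test (0.31, FDR = 0.0863) or no filter on low counts (0.29, FDR = 0.066), nor with the replicate block (0.31, FDR = 0.0878), and without single libraries it ranged from 0.27 to 0.34. The cause of these differences was not tested. Same-numbered WT and KO libraries did not deviate together (correlations of 0.0731, -0.0124 and -0.188). These values give no sign that the numbers pair the mice, but with 3 libraries per group they cannot exclude it. The replicate block gave 545 genes lower in KO in place of 847 and 1061 higher in place of 1350. Without single libraries, the genes called higher ranged from 483 to 1403 and those called lower from 208 to 937, with the lowest numbers without WT replicate 2. DESeq2 called 1665 higher and 1198 lower. Among imprinted genes 1 to 4 were then called higher and 0 to 7 lower, among protein relatives and partners 0 to 1 in either direction, and among neighboring genes 3 to 6 higher and 1 to 2 lower. With 5 libraries the filter drops genes that are over it only in the group with 2 left, which takes Rian and Dio3 out of the fits without a WT library. Library size only gave 2 protein relatives and partners called lower, Ikbkb and Map3k14, and no filter on low counts left 1 neighboring gene called lower. The TRAPP subunits gave 0 calls in every alternative. Fam101b, Peg13 and Sh3bgrl2 had 56 counts or more in each library, while Rian, Dio3 and Ddc rested on 2 to 27 counts per KO library, and Kcnk9, Meg3 and Mirg could not be read at this depth.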
